A study of Mus musculus with 9 samples.

Results

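The comparison set 3 colon libraries of mice that had a hindlimb cast and ate a diet with HYA (IM-HYA) against 3 colon libraries of control mice on a normal diet (CT). These 6 libraries were chosen by their labels out of 9 in the series. The other 3 came from mice with the cast on the normal diet (IM), and they entered the model fit and are given beside some results. All mice were wild type, and the cast, plastic tubes held with adhesive tape, stayed on for 10 days. The labels carry the cast protocol text on the control samples too, where the treatment field reads control; they do not spell out HYA, and they give no age, sex or strain. Cast and diet change together here, and no library came from mice on HYA without a cast, so the parts of the cast and of the diet in a difference from CT cannot be told apart. The replicates carry numbers only, and nothing says that each library came from its own animal, so the p-values measure the spread between these libraries.

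Disuse of a limb is known as a model of muscle loss, and a cast also acts as a stressor for the whole animal. The colon takes up water and salt, ferments fibre with its bacteria and keeps a mucus-covered barrier of short-lived epithelial cells. Its cells run a circadian clock that follows feeding time, and they carry receptors for fatty acids made by bacteria or taken with food. Stress hormones of the adrenal gland act on gut cells through the glucocorticoid receptor.

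The table listed 45777 genes with a read count in each library, and 18414 had enough reads to be tested. IM-HYA libraries held 41430849, 42917198 and 34898874 counts, and CT libraries 37820345, 31103554 and 19638401. CPM below is a count scaled to the library's effective size after TMM scaling, in which a factor for each library corrects for genes that take an unusual share of the reads. Colon markers were present in every library: the summed level of 16 colon epithelium genes was 17702 to 19107 CPM in IM-HYA and 15249 to 18841 CPM in CT. Within IM-HYA the Pearson correlation of log2 CPM between libraries was 0.955 to 0.980, and within CT it was 0.914 to 0.942. The CT libraries were therefore the more unlike one another: among 9319 genes with a mean of at least 10 CPM, 123 (1.32%) ranged over at least 4-fold within IM-HYA and 196 (2.103%) within CT.

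Rn18s-rs5, an 18S ribosomal RNA pseudogene that collects reads of the small ribosomal subunit's RNA, took the most counts in all 6 libraries. Its share was 4.19%, 4.60% and 3.66% in the IM-HYA libraries and 5.42%, 8.76% and 23.2% in the CT libraries. The IM-HYA shares lay close together and below every CT share, while the CT shares were spread widely. The exact 95% binomial interval was 3.654% to 3.666% for the lowest library, IM-HYA 3, and 23.159% to 23.196% for the highest, CT 3; such intervals cover counting error alone. The means were 4.15% ± 0.473 in IM-HYA and 12.5% ± 9.44 in CT (SD, n = 3 each), a difference of −8.30 percentage points. The two-sided exact permutation p was 0.1, the smallest that 3 libraries against 3 can give. Without CT 3 the difference was −2.94 points. On the CPM scale Rn18s-rs5 had a log2 fold change of −2.24 (SE 0.76) and did not pass the test across all genes (edgeR adjusted p = 0.854). After it, COX1 and Lypd8 had the highest mean in IM-HYA. COX1, a mitochondrially encoded oxidase subunit, measured 9977, 11147 and 11803 CPM in IM-HYA and 5366, 8916 and 4531 CPM in CT. Lypd8, a secreted protein that keeps flagellated bacteria off the colon surface, measured 8074, 6084 and 7999 CPM in IM-HYA and 7007, 8291 and 3545 CPM in CT. The groups did not overlap for COX1 and overlapped for Lypd8.

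**Figure D1:**
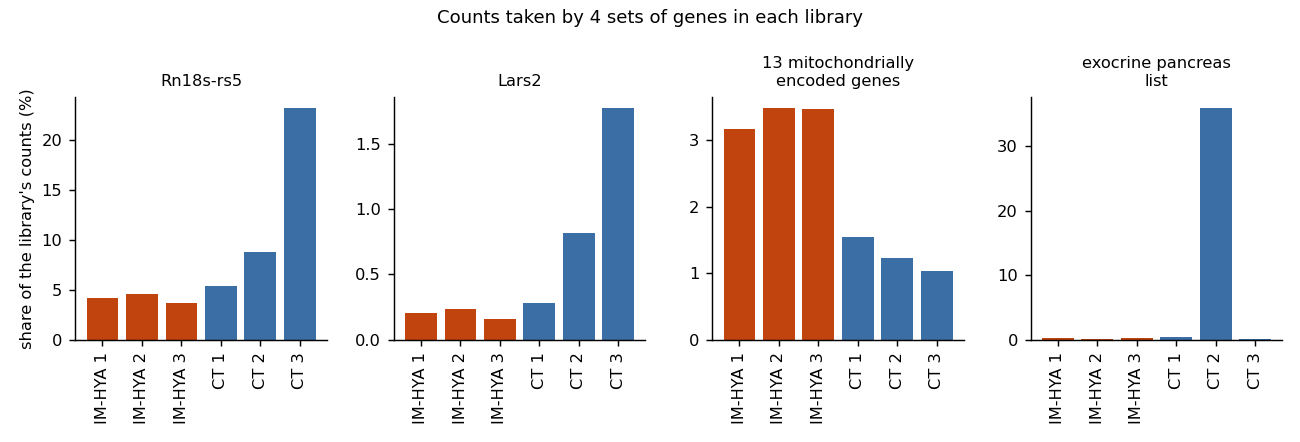
Percent of each library's counts taken by Rn18s-rs5, by Lars2, by the 13 mitochondrially encoded genes and by the exocrine pancreas list, 1 bar per library, IM-HYA left of CT, each panel on its own axis from 0. IM-HYA bars are even within each panel, whereas Rn18s-rs5 runs from 5.42% to 23.2% over CT and the pancreas list stands at 35.8% in CT 2 alone.

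Some other transcripts with ribosomal or small structural RNA in or beside them were, like that share, lower in every IM-HYA library than in every CT library. The class did not follow as a whole. Genes entered as ribosomal RNA took 0.996%, 0.431% and 0.278% of IM-HYA counts and 0.347%, 0.217% and 1.82% of CT counts, which overlapped. Lars2, the mitochondrial leucine tRNA synthetase gene, measured 1700, 2048 and 1322 CPM in IM-HYA and 2496, 17322 and 19861 CPM in CT. Gm15564, a noncoding gene overlapping Kpna1 and Parp9, had no read in any IM-HYA library, against 550, 3296 and 4469 CPM in CT. Against a floor of 3 counts over the IM-HYA group, Gm15564 was at least 94865-fold lower in IM-HYA. Its levels in the IM libraries were 0, 1778 and 3961 CPM, so the absence was shared by IM 1. Rmrp, the RNA of the RNase MRP complex that cuts ribosomal RNA precursors, measured 11.4, 8.89 and 7.45 CPM in IM-HYA and 13.1, 29.7 and 97.8 CPM in CT. The 5S ribosomal RNA model LOC115489751 measured 0.0599, 0.0598 and 0.0484 CPM in IM-HYA and 0.401, 12.4 and 10.3 CPM in CT, and the noncoding model Gm46178 4.89, 6.44 and 3.70 CPM in IM-HYA and 7.49, 46.0 and 50.5 CPM in CT. In all 5 genes CT 1 lay nearest to IM-HYA, with CT 2 and CT 3 above it. With the Rn18s-rs5 share as a covariate, the log2 fold change went from −2.97 to −1.11 for Lars2 and from −2.34 to −0.62 for Rmrp. It went from −7.00 to −3.77 for LOC115489751, from −2.79 to −1.36 for Gm46178 and from −19.6 to −15.2 for Gm15564. These 5 were picked after their values were seen, and none passed in edgeR (adjusted p = 0.854). DESeq2 called 2 of them lower, Gm15564 (adjusted p = 6.54e-17) and LOC115489751 (adjusted p = 0.000298). The part of RNA quality or of ribosomal RNA removal in these differences was not tested.

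Tissue content also differed between libraries of 1 group. Of 27 exocrine pancreas genes, 24 could be tested, and they summed to 1266 to 2383 CPM in IM-HYA; CT 1 and CT 3 summed to 3545 and 2229 CPM and CT 2 to 761752 CPM. Cel and Pla2g1b, a lipase and a phospholipase of pancreatic juice, had 0 counts in every IM-HYA library. The list took 0.268%, 0.148% and 0.282% of the IM-HYA counts, against 0.398%, 35.8% and 0.199% in CT, and 23 of its 24 genes were lower in IM-HYA at an unadjusted p under 0.05 (2.85% of all genes were), with CT 2 alone high. Hoxd13, a homeobox gene of the distal colon, measured 96.0, 3.65 and 105 CPM in IM-HYA and 105, 33.6 and 4.62 CPM in CT. Muc2, the gel-forming mucin of goblet cells, measured 916, 9511 and 791 CPM in IM-HYA and 804, 1624 and 5122 CPM in CT. Both genes varied within each group over a wider range than between the groups.

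Across all genes, 1 of the 18414 passed, 0.00543% (edgeR's quasi-likelihood test, Benjamini-Hochberg adjusted p under 0.05): 0 were higher and 1 was lower in IM-HYA. At an unadjusted p under 0.05 there were 952 genes (5.17%), 427 higher (2.32%) and 525 lower (2.85%). Counts of list members at that p, given below, are to be read beside these shares. That number depended on the fit: it was 2781 of 17631 genes with only the 6 libraries compared and 4053 of 18414 in limma-voom with sample weights, where 1 gene passed as well. The libraries did not overlap for 1987 genes with every IM-HYA library above every CT library (10.8%) and for 2089 with every IM-HYA library below (11.3%). The fitted change was above 0 for 50.6% of genes, with a median log2 fold change of 0.01. Standard errors of these changes had a median of 0.37. DESeq2, run as an alternative, called 15 genes, 10 higher and 5 lower. The lower ones were G530011O06Rik, Gm15564, LOC115489751, Rplp2-ps1 and the noncoding 5430437J10Rik. Of the 869 tested genes in the lists below it called 1, Hsph1.

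**Figure D2:**
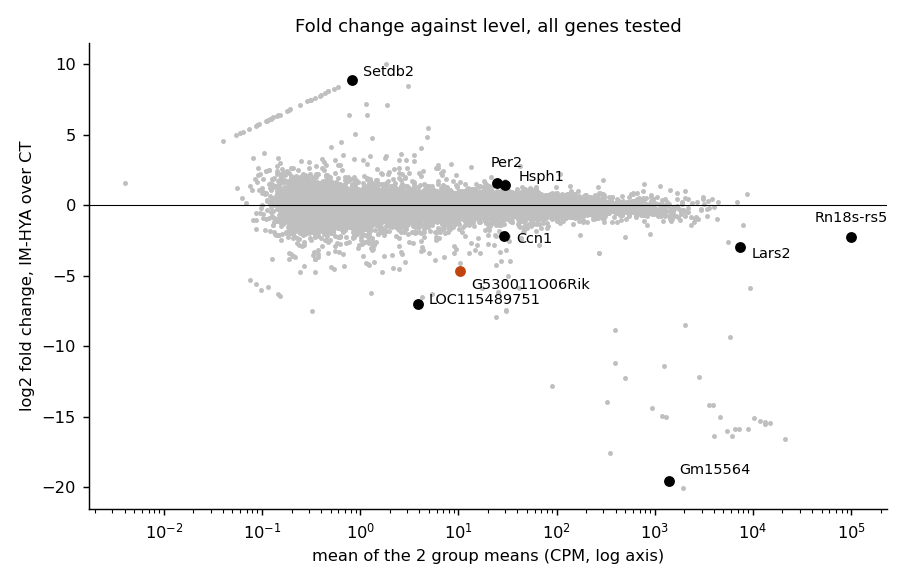
Log2 fold change of IM-HYA over CT (vertical axis) against the mean of both group means in CPM (horizontal, log axis) for each of the 18414 genes, with 9 genes named; the orange point is the 1 that passed. Most genes lie near 0, the points below −10 at high levels are mainly the pancreas genes of CT 2, and the rising line at the upper left holds genes with no read in CT.

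The gene that fell was G530011O06Rik (Entrez 654820), a long noncoding RNA read from the minus strand of chromosome X. On GRCm38 it spans 169975043 to 169978917 and lies within Mid1, a gene of the plus strand. It measured 0.499, 0.937 and 0.871 CPM in IM-HYA and 18.9, 21.1 and 19.97 CPM in CT. Every IM-HYA library was far below every CT library, and the libraries of each group were close together. The log2 fold change was −4.69 (SE 0.33; edgeR adjusted p = 0.00199). The IM libraries measured 1.01, 0.777 and 0.698 CPM, as low as IM-HYA, and the log2 fold change of IM-HYA over IM was −0.11 (edgeR adjusted p = 0.877). Mid1 itself measured 6.88, 7.72 and 6.58 CPM in IM-HYA and 5.35, 6.90 and 5.02 CPM in CT, overlapping levels with a log2 fold change of 0.30 (SE 0.26). The call ended in 1 of 24 alternatives, limma on log2(FPKM + 1) with no filter (adjusted p = 0.184). It held when any 1 of the 9 libraries was left out.

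The reference places G530011O06Rik both on X and on Y, and the windows around both starts are shown because reads from such copies may be hard to assign. They come from RefSeq (GRCm38.p6), run from 250 bases before to 50 bases after the annotated start, and carry the first transcribed base in capitals.
G530011O06Rik, chrX:169978868-169979167, minus strand: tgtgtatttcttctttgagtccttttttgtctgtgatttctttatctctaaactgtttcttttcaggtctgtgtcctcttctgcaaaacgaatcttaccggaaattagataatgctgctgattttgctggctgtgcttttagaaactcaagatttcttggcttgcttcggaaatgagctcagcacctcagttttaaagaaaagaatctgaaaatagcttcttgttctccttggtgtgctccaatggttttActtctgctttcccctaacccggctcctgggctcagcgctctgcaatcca
G530011O06Rik, chrY:90755001-90755300, minus strand: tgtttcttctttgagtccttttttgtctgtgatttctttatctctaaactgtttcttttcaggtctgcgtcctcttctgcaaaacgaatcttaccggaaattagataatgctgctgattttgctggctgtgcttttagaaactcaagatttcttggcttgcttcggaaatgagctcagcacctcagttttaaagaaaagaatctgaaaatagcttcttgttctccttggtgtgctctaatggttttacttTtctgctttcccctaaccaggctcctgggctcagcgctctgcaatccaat
Of the 300 bases, 293 fell in matching blocks, and the longest run shared without a difference was 168 bases. No source used here says how the authors treated reads that match more than 1 place. The measured level is therefore that of the gene's entry and not of 1 copy.

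Among named genes with every IM-HYA library above every CT library, leaving out immunoglobulin segments, the 10 with the smallest p did not pass (edgeR adjusted p = 0.854 each). Hsph1, a cytosolic heat shock protein that recharges HSP70, measured 32.5, 62.1 and 34.5 CPM in IM-HYA and 15.9, 15.4 and 16.9 CPM in CT, with a log2 fold change of 1.42 (SE 0.28). Fbrs measured 42.3, 46.1 and 39.8 CPM in IM-HYA and 23.8, 20.8 and 24.0 CPM in CT (0.90, SE 0.18). Mon1b, part of the exchange factor that activates RAB7 on late endosomes, measured 24.7, 23.2 and 23.2 CPM in IM-HYA and 12.9, 13.5 and 13.3 CPM in CT (0.84, SE 0.19). In these 3 genes, chosen for not overlapping, the gap between the groups was wider than the spread within CT. For Hsph1 the gap was narrower than the spread within IM-HYA. Foxj3, a forkhead transcription factor, measured 39.9, 41.9 and 35.7 CPM in IM-HYA and 25.3, 19.1 and 25.2 CPM in CT.

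The X-linked lymphocyte-regulated genes Xlr3a and Xlr3b are near-identical copies, so reads may be split between them. Xlr3a measured 3.97, 3.25 and 4.18 CPM in IM-HYA and 0.306, 0.820 and 0.799 CPM in CT (log2 fold change 2.59, SE 0.50). Xlr3b measured 2.18, 1.93 and 3.53 CPM in IM-HYA and 0.495, 0.137 and 0.628 CPM in CT. The histone methyltransferase family gene Setdb2 had 239 counts over IM-HYA (2.53, 1.32 and 1.11 CPM) and none in CT, at least 42.0-fold higher if CT is set to the floor of 3 counts; it also had no read in IM and overlaps Gm45935. Moap1, a BAX-binding gene overlapping Gm20604, had 519 counts over IM-HYA and 2 over CT. The overlapping models Gm45935 and Gm20604 overlapped between the groups in level. Counting settings are not given, and whether the Setdb2 and Moap1 counts reflect the assignment of reads between overlapping models was not tested. Per2 and Per3, which complete the 10, are clock genes described below. DESeq2 called 6 of the 10, Setdb2, Xlr3b, Xlr3a, Fbrs, Hsph1 and Mon1b, with adjusted p from 0.00178 to 0.0400.

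On the lower side the 10 genes chosen the same way after G530011O06Rik also did not pass (edgeR adjusted p = 0.854 each); DESeq2 called 1 of them, Rplp2-ps1 (adjusted p = 0.0122). Plau, the urokinase that activates plasmin, measured 14.7, 14.8 and 17.6 CPM in IM-HYA and 44.0, 22.8 and 32.9 CPM in CT, with a log2 fold change of −1.08 (SE 0.25). S100a16, a calcium-binding protein gene, measured 301, 256 and 320 CPM in IM-HYA and 717, 575 and 546 CPM in CT (−1.07, SE 0.27). Bok, a BCL2 family member, measured 16.6, 20.8 and 19.5 CPM in IM-HYA and 33.0, 35.9 and 32.0 CPM in CT (−0.83, SE 0.21). A gap between the groups was a condition of choosing these genes. For Plau it ran only from 17.6 to 22.8 CPM, narrower than the spread within CT. Bco2, which cleaves carotenoids in mitochondria, measured 12.97, 19.6 and 17.1 CPM in IM-HYA and 23.5, 29.3 and 44.7 CPM in CT. Ccn1, a matrix protein induced by growth factors, measured 7.26, 14.2 and 9.87 CPM in IM-HYA and 103, 19.4 and 21.3 CPM in CT. CT 1 alone was high for Ccn1: without it the log2 fold change was −0.96, against −2.19 (SE 0.59) with all libraries.

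Bdh2, a cytosolic dehydrogenase gene, measured 1.20, 1.04 and 1.81 CPM in IM-HYA and 3.44, 3.62 and 2.97 CPM in CT, and the aggrecan-cleaving protease gene Adamts4 0.519, 0.638 and 0.992 CPM in IM-HYA and 2.55, 3.28 and 1.88 CPM in CT. The microRNA gene Mir703, which lies within Cfap299, measured 3.73, 3.63 and 4.91 CPM in IM-HYA and 11.5, 11.3 and 12.8 CPM in CT. Rnu3b3, a copy of the U3 small nucleolar RNA, had 6 counts over IM-HYA and 62 over CT. The ribosomal protein pseudogene Rplp2-ps1 measured 1.26, 1.04 and 1.04 CPM in IM-HYA and 7.82, 8.33 and 42.8 CPM in CT. The annotation enters Rnu3b3 as a small nuclear RNA. Of the 28 genes entered so, 17 (60.7%) had every IM-HYA library below every CT library, against 11.3% of all genes, and of 107 pseudogenes described as ribosomal protein copies 71 did (66.4%). Of 36 genes entered as small nucleolar RNA, 8 had every IM-HYA library below (22.2%) and 5 every one above (13.9%, against 10.8% of all genes).

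**Figure D3:**
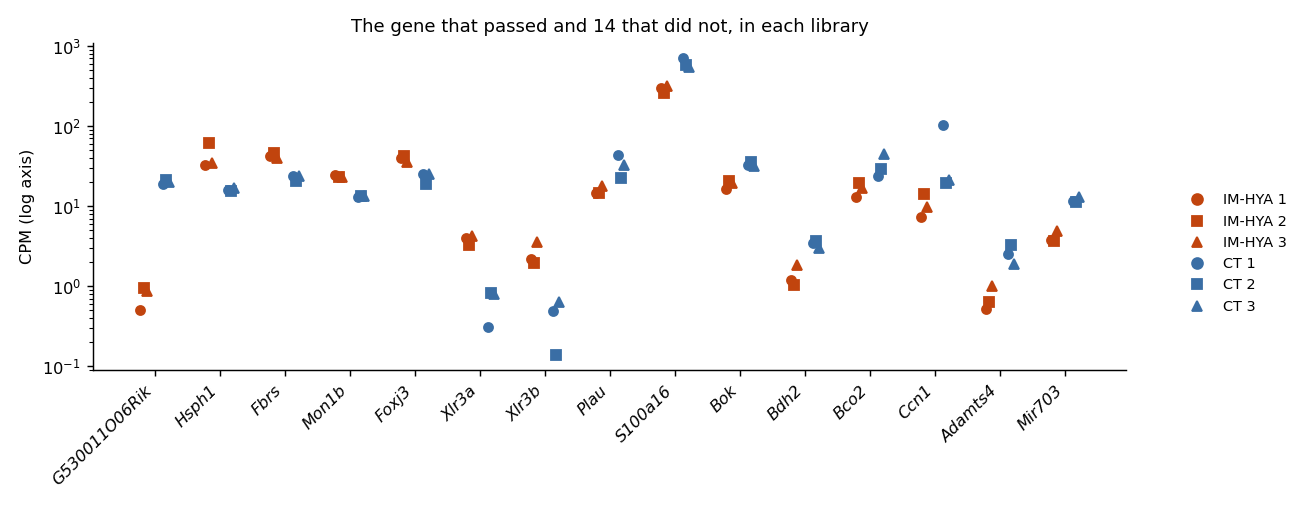
CPM in each library (log axis) of G530011O06Rik, which passed, and of 14 genes that did not; orange IM-HYA symbols stand left of blue CT symbols and the symbol shape gives the replicate number. The genes were chosen without overlap between IM-HYA and CT; for Ccn1 CT 1 sits at 103 CPM, far above CT 2 and CT 3.

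Genes of the circadian repressors, whose proteins hold back the CLOCK and BMAL1 activators, were mostly higher in IM-HYA, without passing singly (edgeR adjusted p 0.854 or more). Of 10 tested, 9 were fitted above 0 and 7 had every IM-HYA library above every CT library (70%, against 10.8% of all genes). At an unadjusted p under 0.05 there were 6, all higher (2.32% of all genes were). The median log2 fold change was 0.62, against 0.01 over all genes. With the Rn18s-rs5 share as a covariate the list's median was 0.41, against −0.01 over all genes, and Per2 had 1.06. Per2 measured 48.1, 33.1 and 30.8 CPM in IM-HYA and 18.2, 11.4 and 8.10 CPM in CT, a log2 fold change of 1.57 (SE 0.37). Per3 measured 45.8, 35.9 and 34.1 CPM in IM-HYA and 23.5, 12.98 and 14.2 CPM in CT (1.19, SE 0.29). Ciart, which represses through BMAL1, measured 36.2, 20.9 and 27.2 CPM in IM-HYA and 12.9, 9.09 and 3.71 CPM in CT (1.71, SE 0.51). Within CT, library 1 was the highest for all 3 genes, and it was still below each IM-HYA library. Per1 measured 59.6, 42.7 and 48.5 CPM in IM-HYA and 38.4, 32.0 and 22.7 CPM in CT (0.70, SE 0.26), and Cry1 8.90, 8.26 and 7.57 CPM in IM-HYA and 6.20, 2.39 and 4.28 CPM in CT (0.94, SE 0.35). Cry2 and the nuclear receptor Nr1d2 also did not overlap, with log2 fold changes of 0.49 (SE 0.22) and 0.45 (SE 0.20). Nr1d1 overlapped: 185, 153 and 197 CPM in IM-HYA and 105, 170 and 90.8 CPM in CT. Bhlhe40 and Bhlhe41 overlapped as well. In the IM libraries Per2 measured 35.7, 17.6 and 18.8 CPM, so that IM 1 lay within the IM-HYA range and IM 2 within the CT range.

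Several clock output genes were also higher in IM-HYA, and the activators were not; 0 of the 10 passed. Dbp, a PAR-bZIP factor driven directly by the clock, measured 246, 151 and 199 CPM in IM-HYA and 92.1, 121 and 21.7 CPM in CT (log2 fold change 1.35, SE 0.57). Its relatives Tef and Hlf measured 174, 121 and 147 CPM and 21.2, 21.9 and 15.5 CPM in IM-HYA, against 109, 84.0 and 70.9 CPM and 12.7, 5.60 and 8.27 CPM in CT (0.74, SE 0.25, and 1.14, SE 0.31). In Dbp, Tef and Hlf every IM-HYA library was above every CT library, and 4 of the 10 genes of this list showed that pattern (40%, against 10.8% of all genes). Npas2, an activator that pairs with BMAL1, measured 8.86, 8.24 and 11.3 CPM in IM-HYA and 16.1, 9.50 and 22.9 CPM in CT (−0.77, SE 0.32). Clock and Arntl, which encodes BMAL1, overlapped between the groups. The median over the 10 was −0.25, but 0.28 with the Rn18s-rs5 share as a covariate and 0.79 on log2(FPKM + 1), where the median of all genes was 0.52. The mice were kept on a light/dark cycle, and the hour at which each colon was collected is not given in the sources used here.

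**Figure D4:**
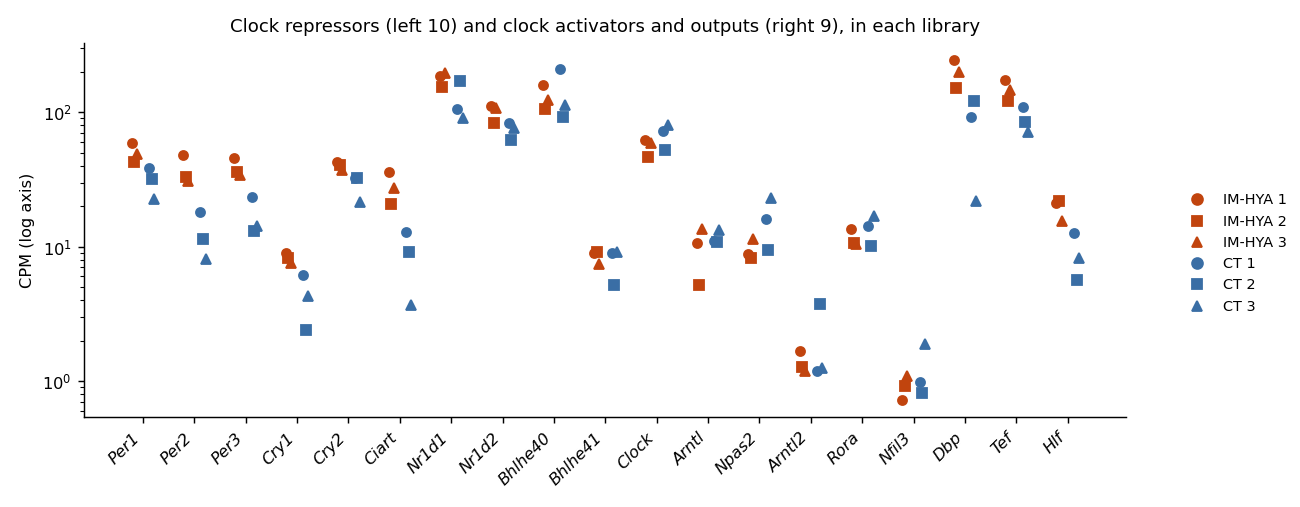
CPM in each library (log axis) of 10 clock repressor genes and 9 clock activators and output genes, IM-HYA in orange left of CT in blue, symbol shape by replicate number. For Per1, Per2, Per3, Cry1, Cry2, Ciart, Nr1d2, Dbp, Tef and Hlf the orange symbols lie above the blue ones, and for the other 9 genes the groups overlap.

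Promoter windows of repressor genes are shown because clock factors act through short boxes near the start. The patterns below were searched on both strands, none of which can contain another: the E-box CACGTG, the D-box TTATGTAA, the cyclic AMP element TGACGTCA and a heat shock element, GAA and TTC in turn 3 times with a pair of free bases between them. The windows are RefSeq's (GRCm38.p6, 250 bases before to 50 after the start, read along the gene's strand), and the capitals mark the match. Of the 10 repressor genes 8 had a window. The E-box was found in 4 of their 9 windows (44.4%), against 7.15% of 32851 windows of all genes. The other lists searched were also above that share. It was found in 18.2% of 22 windows of immediate early genes, described below, which were mostly lower in IM-HYA. For clock activators and outputs it was 15.4% of 13 windows, and for heat shock chaperones 15% of 20.
Per1, chr11:69098699-69098998, plus strand, E-box: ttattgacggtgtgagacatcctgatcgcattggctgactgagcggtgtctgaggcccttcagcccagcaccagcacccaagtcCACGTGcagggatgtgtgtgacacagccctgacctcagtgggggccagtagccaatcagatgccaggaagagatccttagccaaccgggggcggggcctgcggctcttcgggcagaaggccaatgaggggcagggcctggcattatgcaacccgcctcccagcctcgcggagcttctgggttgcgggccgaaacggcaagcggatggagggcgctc
Ciart, chr3:95882179-95882478, minus strand, E-box: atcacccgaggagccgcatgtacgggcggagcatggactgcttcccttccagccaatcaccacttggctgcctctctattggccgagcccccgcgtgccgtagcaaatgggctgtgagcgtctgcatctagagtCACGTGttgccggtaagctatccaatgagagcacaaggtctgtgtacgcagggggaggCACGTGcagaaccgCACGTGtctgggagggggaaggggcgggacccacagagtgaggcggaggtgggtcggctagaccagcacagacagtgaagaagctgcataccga
Cry1, chr10:85185005-85185304, minus strand, E-box: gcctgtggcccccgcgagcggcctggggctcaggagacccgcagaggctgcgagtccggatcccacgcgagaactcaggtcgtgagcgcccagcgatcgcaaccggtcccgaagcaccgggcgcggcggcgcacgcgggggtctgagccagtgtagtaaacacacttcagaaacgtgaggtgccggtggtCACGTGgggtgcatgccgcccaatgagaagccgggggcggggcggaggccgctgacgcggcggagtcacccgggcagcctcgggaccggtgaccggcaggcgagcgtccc
Per3, chr4:151044616-151044915, minus strand, D-box: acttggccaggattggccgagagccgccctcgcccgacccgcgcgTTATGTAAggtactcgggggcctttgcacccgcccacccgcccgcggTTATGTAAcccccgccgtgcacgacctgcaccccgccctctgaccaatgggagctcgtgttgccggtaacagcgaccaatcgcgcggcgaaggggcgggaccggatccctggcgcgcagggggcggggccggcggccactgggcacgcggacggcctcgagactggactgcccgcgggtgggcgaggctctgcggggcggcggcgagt
Ciart held 3 E-boxes and Per1 and Cry1 held 1 each, and the Per3 window held 2 D-box matches, where 0.938% of all windows had one. The other repressor gene with an E-box was Bhlhe41, which overlapped between the groups and is not shown. Nr1d2, which did not overlap between the groups, had none of these in its window. Per2 and Cry2, also without overlap, were not among the genes with a match. Since only 8 of the 10 repressor genes had a window, this need not mean that a window of theirs was searched. A match describes letters and not binding.

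Heat shock chaperone genes were higher in IM-HYA in part. Of 20 tested, 18 were fitted above 0 and 5 had every IM-HYA library above every CT library (10.8% of all genes did); 0 passed, 2 had an unadjusted p under 0.05, and the median was 0.21. Hsph1, given above, had the highest fold change of the list. Stip1, which links HSP70 with HSP90, had a log2 fold change of 0.53 (SE 0.21). The HSP70 partner Dnaja1 measured 118, 133 and 125 CPM in IM-HYA and 111, 64.2 and 69.0 CPM in CT (0.62, SE 0.30, but 0.26 with the Rn18s-rs5 share as a covariate). Hspa8 and Dnajb1 were the other members without overlap. The inducible HSP70 genes Hspa1a and Hspa1b overlapped, CT 1 being the highest CT library for both. The heat shock element was found in 5 of 20 windows of list genes (25%), against 0.603% of all windows, and Hsph1 had it just downstream of the start, shown here for its leading position in the list.
Hsph1, chr5:149636287-149636586, minus strand, heat shock element: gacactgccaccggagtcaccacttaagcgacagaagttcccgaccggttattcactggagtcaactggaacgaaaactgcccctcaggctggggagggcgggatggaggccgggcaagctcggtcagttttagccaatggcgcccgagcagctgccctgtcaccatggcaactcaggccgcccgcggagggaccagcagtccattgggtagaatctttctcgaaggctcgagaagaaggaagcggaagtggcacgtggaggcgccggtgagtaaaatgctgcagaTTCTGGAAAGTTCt

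Immediate early genes, which cells switch on within minutes of a stimulus, were lower in IM-HYA for the most part, and 0 of 22 passed. Of the 22, 18 were fitted below 0, and 6 had every IM-HYA library below every CT library (27.3%, against 11.3%). At an unadjusted p under 0.05 there were 6, all lower (2.85% of all genes were). The median was −0.58, turning to 0.22 on log2(FPKM + 1), where that of all genes was 0.52. Egr1, a zinc finger transcription factor, measured 4.69, 13.6 and 17.8 CPM in IM-HYA and 88.1, 23.6 and 29.7 CPM in CT (log2 fold change −1.97, SE 0.62). The orphan receptor Nr4a1 measured 5.31, 10.6 and 6.94 CPM in IM-HYA and 72.3, 12.4 and 14.03 CPM in CT (−2.11, SE 0.64). Fosb measured 1.64, 2.07 and 1.40 CPM in IM-HYA and 14, 3.42 and 2.22 CPM in CT. CT 1 was the highest library in each of these 3, far above CT 2 and CT 3. Fos and Atf3 overlapped between the groups and were likewise highest in CT 1. Without CT 1 the list's median was −0.16. Jund, a member whose RNA is present in resting cells, measured 524, 750 and 534 CPM in IM-HYA and 1242, 1006 and 911 CPM in CT (−0.80, SE 0.35), a gap that did not rest on CT 1.

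The glucocorticoid receptor gene Nr3c1 measured 61.0, 52.4 and 55.4 CPM in IM-HYA and 43.6, 28.5 and 41.4 CPM in CT (log2 fold change 0.57, SE 0.24, but 0.37 with the Rn18s-rs5 share as a covariate). Fkbp5, a receptor cochaperone and a standard target, measured 57.5, 61.9 and 99.6 CPM in IM-HYA and 31.3, 29.9 and 39.5 CPM in CT (1.12, SE 0.29), and 64.9, 72.3 and 115 CPM in IM. All cast libraries were above all CT libraries for Fkbp5. Another target, Ddit4, which restrains mTOR, measured 87.0, 49.95 and 85.8 CPM in IM-HYA and 31.6, 45.6 and 19.5 CPM in CT (1.20, SE 0.57, but 0.22 with the Rn18s-rs5 share as a covariate). Tsc22d3 did not overlap, while Sgk1, Klf9 and the metallothionein genes Mt1 and Mt2 did. Of 16 list members 0 passed, 4 had an unadjusted p under 0.05, 3 of them higher, and 5 had every IM-HYA library above every CT library (31.2%, against 10.8%). The median was 0.19, and −0.15 with the Rn18s-rs5 share as a covariate. Among the 5 without overlap, Per1 is also counted in the clock repressor list and Ddit4 in the hypoxia and glycolysis list.

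Glycolysis and hypoxia genes were all fitted above 0, 23 of 23, with a median of 0.44; 0 passed, and 1 had an unadjusted p under 0.05. In 7 of 23 (30.4%, against 10.8%) every IM-HYA library was above every CT library. Vegfa, the main angiogenic growth factor, measured 38.7, 42.9 and 40.7 CPM in IM-HYA and 27.5, 28.6 and 24.2 CPM in CT (log2 fold change 0.60, SE 0.16). Hexokinase genes Hk1 and Hk2 measured 146, 138 and 127 CPM and 126, 109 and 123 CPM in IM-HYA, against 84.0, 112 and 66.7 CPM and 98.2, 84.5 and 83.5 CPM in CT. Gapdh measured 379, 298 and 386 CPM in IM-HYA and 207, 279 and 114 CPM in CT. CT 3, the library with the largest Rn18s-rs5 share, was the lowest for Hk1, Hk2, Gapdh and Vegfa. The list's median was 0.24 without CT 3 and −0.10 with the Rn18s-rs5 share as a covariate.

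The 13 genes encoded in mitochondrial DNA, all subunits of the respiratory chain or of ATP synthase, took 3.16%, 3.48% and 3.47% of IM-HYA counts and 1.54%, 1.23% and 1.03% of CT counts. Their summed level was 26143, 29800 and 29328 CPM in IM-HYA and 13762, 26126 and 11581 CPM in CT. On that scale CT 2 lay just below IM-HYA 1. In CPM, 8 of 13 had every IM-HYA library above every CT library (61.5%, against 10.8%), 1 had every one below (7.69%, against 11.3%), and the median log2 fold change was 0.85; 0 passed, and 3 had an unadjusted p under 0.05. ATP8 measured 188, 169 and 178 CPM in IM-HYA and 19.9, 68.7 and 26.2 CPM in CT (2.22, SE 0.86). ND4 measured 1583, 1800 and 1526 CPM in IM-HYA and 342, 1169 and 428 CPM in CT (1.34, SE 0.56). CT 2, the library with the pancreas reads and a TMM factor of 0.473, was the CT library nearest to IM-HYA in both. ND6, the gene on the other strand, measured 180, 136 and 145 CPM in IM-HYA and 187, 211 and 537 CPM in CT (−1.02, SE 0.71). The median was 1.37 without CT 2 and 0.13 with the Rn18s-rs5 share as a covariate. The nuclear genes of the respiratory chain differed from this: of 42, 4 had every IM-HYA library above CT (9.52%, near the 10.8% of all genes) and 17 every one below (40.5%, against 11.3%), 0 passed or had an unadjusted p under 0.05, and the median was −0.15, or 0.47 on log2(FPKM + 1), where that of all genes was 0.52.

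Cytoplasmic ribosomal protein genes were low in IM-HYA, and 0 of 77 passed. In 48 of 77 (62.3%, against 11.3% of all genes) every IM-HYA library was below every CT library, and in 0 every one was above. Of the 77, 73 were fitted below 0. At an unadjusted p under 0.05 there were 17, all lower (2.85% of all genes were). The median was −0.47, turning to 0.19 on log2(FPKM + 1), where that of all genes was 0.52. Rps14, of the small subunit, measured 1064, 1070 and 1213 CPM in IM-HYA and 1932, 2175 and 1706 CPM in CT (log2 fold change −0.80, SE 0.24). The stalk protein gene Rplp1 measured 1344, 1662 and 1574 CPM in IM-HYA and 2909, 3633 and 3775 CPM in CT. The groups stood well apart in both. Rpl4, Rpl15, Rpl6 and Rpl31 were fitted above 0 and overlapped; Rpl4 measured 1075, 887 and 1143 CPM in IM-HYA and 856, 1144 and 572 CPM in CT. The summed level of the list was 58886 to 64546 CPM in IM-HYA and 77448 to 101391 CPM in CT, CT 2 being the highest. As a share of all counts the groups overlapped, at 7.12%, 7.02% and 7.65% in IM-HYA and 9.38%, 4.77% and 6.91% in CT. CT 2, the library with the pancreas reads, was the lowest in that share. The list's median was −0.28 without CT 2. Many of these genes have processed copies in the genome that share their reads, which makes single values uncertain.

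**Figure D5:**
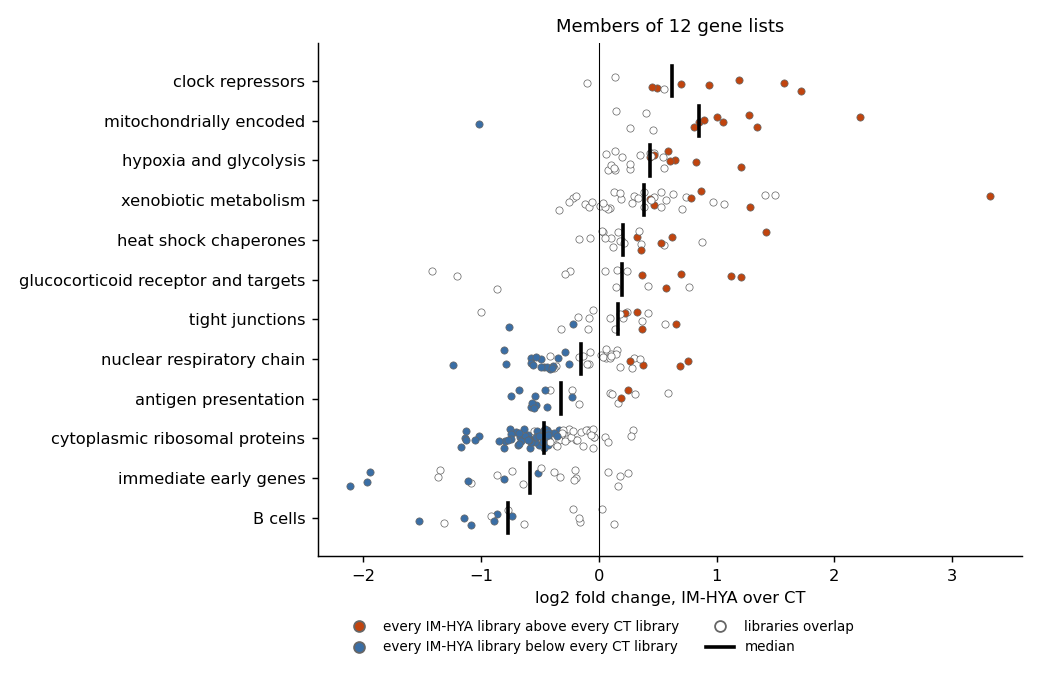
Log2 fold change of IM-HYA over CT for each tested member of 12 lists, 1 point per gene, with the list's median as a black bar; orange points had every IM-HYA library above every CT library, blue points every one below, white points overlapped. The clock repressor, mitochondrially encoded and glycolysis lists lie mostly to the right of 0, and the ribosomal protein, immediate early and B cell lists mostly to the left.

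Enzymes and transporters that handle foreign compounds had 31 of 38 members fitted above 0 and a median log2 fold change of 0.39. On the higher side 6 were without overlap (15.8%, against 10.8%) and 5 had an unadjusted p under 0.05 (2.32% of all genes did). Of the 38, 0 passed. Gclc, the catalytic subunit that limits glutathione synthesis, measured 34.0, 27.6 and 38.04 CPM in IM-HYA and 15.8, 18.4 and 20.5 CPM in CT (0.86, SE 0.30). The carboxylesterase gene Ces2c measured 140, 117 and 161 CPM in IM-HYA and 46.5, 79.7 and 45.4 CPM in CT (1.28, SE 0.61, but 0.18 with the Rn18s-rs5 share as a covariate). Both had every IM-HYA library above every CT library. Among lipid genes, Dgat2, which completes triglycerides, measured 31.1, 30.5 and 29.6 CPM in IM-HYA and 16.2, 23.0 and 12.8 CPM in CT (0.81, SE 0.33). Mylip, a sterol-induced ligase that degrades the LDL receptor, measured 23.7, 15.02 and 22.3 CPM in IM-HYA and 12.5, 7.58 and 7.82 CPM in CT (1.13, SE 0.39). Fasn, Acaca and Scd2 overlapped, and of the 24 genes of fatty acid and triglyceride synthesis 4 were higher without overlap (16.7%, against 10.8%), 1 was lower (4.17%, against 11.3%), 2 had an unadjusted p under 0.05 and 0 passed. Of 26 fat oxidation genes and PPAR targets 2 were higher without overlap (7.69%, against 10.8%), 0 lower, 1 had an unadjusted p under 0.05 and 0 passed, with a median of −0.01.

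Receptors that sense fatty acids showed overlapping levels. Ffar2, a receptor of short-chain fatty acids, measured 2.85, 41.8 and 2.68 CPM in IM-HYA and 4.83, 11.2 and 57.7 CPM in CT, and Ffar4, a receptor of long-chain fatty acids, 16.7, 36.0 and 15.5 CPM in IM-HYA and 19.5, 18.1 and 29.2 CPM in CT. For both genes the highest library of each group was the one with the lowest Hoxd13, IM-HYA 2 and CT 3. Of the 6 tested receptors and transporters 0 were without overlap, and 0 passed or had an unadjusted p under 0.05. The bile acid receptor gene Nr1h4 measured 32.2, 29.4 and 28.5 CPM in IM-HYA and 22.7, 23.2 and 19.3 CPM in CT (log2 fold change 0.47, SE 0.18), without overlap. Pyy, which encodes the satiety hormone peptide YY of colonic endocrine cells, was lower in every IM-HYA library. It measured 119, 120 and 119 CPM in IM-HYA and 162, 248 and 187 CPM in CT (−0.74, SE 0.31). Of 21 tested hormone and endocrine genes it alone was lower without overlap (4.76%, against 11.3% of all genes). In this list 0 were higher without overlap. Pyy was also the 1 at an unadjusted p under 0.05, and 0 of the 21 passed. Gcg, which encodes GLP-1, overlapped at 17.5, 74.2 and 28.5 CPM in IM-HYA and 18.8, 186 and 52.0 CPM in CT.

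The salt exchanger gene Slc9a2 measured 127, 128 and 135 CPM in IM-HYA and 76.1, 75.4 and 69.0 CPM in CT (log2 fold change 0.82, SE 0.31), and the insulin receptor substrate Irs2 41.5, 30.9 and 40.2 CPM in IM-HYA and 22.0, 19.4 and 26.0 CPM in CT (0.74, SE 0.26). Neither passed, and in both the groups did not overlap. With the Rn18s-rs5 share as a covariate the log2 fold change was 0.39 for Slc9a2 and 0.50 for Irs2. Of 21 salt, water and bicarbonate transport genes, 2 were higher (9.52%, against 10.8%) and 2 lower (9.52%, against 11.3%) without overlap. Of 14 insulin-like growth factor axis genes, 2 were higher (14.3%, against 10.8%) and 1 lower (7.14%, against 11.3%) without overlap. In both lists 0 passed. Of 20 tight junction genes, 4 were higher (20%, against 10.8%) and 2 lower (10%, against 11.3%) without overlap, and 0 passed or had an unadjusted p under 0.05. Cldn7, a claudin of the colon surface, measured 733, 835 and 676 CPM in IM-HYA and 872, 884 and 853 CPM in CT, so that every IM-HYA library was below every CT library. Goblet cell markers had 0 of 15 genes without overlap and a median of 0.00.

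Genes of immune cells were lower in IM-HYA for some classes, without any passing in edgeR. Of 20 antigen presentation genes 10 were lower (50%, against 11.3%) and 2 higher (10%, against 10.8%) without overlap, with a median of −0.32, or 0.27 on log2(FPKM + 1), where that of all genes was 0.52; 0 had an unadjusted p under 0.05. H2-Ab1, a class II chain, measured 131, 136 and 124 CPM in IM-HYA and 207, 217 and 235 CPM in CT (log2 fold change −0.75, SE 0.56, but −0.083 with the Rn18s-rs5 share as a covariate), and the invariant chain gene Cd74 322, 390 and 280 CPM in IM-HYA and 480, 526 and 470 CPM in CT. In both genes the IM-HYA and CT libraries stood apart. The list's median was 0.06 with the Rn18s-rs5 share as a covariate. Of 15 B cell markers 6 were lower without overlap (40%, against 11.3%) and 13 were fitted below 0, 0 had an unadjusted p under 0.05, and their summed level was 45.9 to 70.0 CPM in IM-HYA and 85.6 to 98.6 CPM in CT. Cd79a, a signalling chain of the B cell receptor, measured 10.0, 6.08 and 7.74 CPM in IM-HYA and 20.5, 14.6 and 17.8 CPM in CT (−1.15, SE 0.98). Its log2 fold change was −0.38 with the Rn18s-rs5 share as a covariate. In bulk tissue fewer cells of a type and less RNA per cell cannot be told apart. Immunoglobulin variable segments, whose reads similar segments may share, lay on the higher side: 27 of 134 were higher without overlap (20.1%, against 10.8%) and 3 lower (2.24%, against 11.3%). DESeq2 called 4 segments higher, Igkv6-13, Ighv6-6, Igkv3-10 and Ighv1-84, with adjusted p from 7.06e-05 to 0.0452. Of 18 inflammatory cytokine and chemokine genes 2 were higher (11.1%, against 10.8%) and 0 lower without overlap; 14 were fitted below 0, with a median of −0.30, and the 1 with an unadjusted p under 0.05 was lower. Of 34 interferon response genes 3 were higher (8.82%) and 4 lower (11.8%), close to the shares of all genes, and 1 had an unadjusted p under 0.05. In both lists 0 passed.

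Set against the IM libraries in place of CT, IM-HYA had 0 genes passing in edgeR, with 1410 at an unadjusted p under 0.05 (7.66%). IM against CT had 1, again G530011O06Rik, and 1464 at an unadjusted p under 0.05 (7.95%). The gene had a log2 fold change of −4.58 there. Both comparisons with CT use the same 3 CT libraries, so their values are given side by side and not counted as separate evidence. The median log2 fold change of the ribosomal protein list was −0.47 for IM-HYA over CT, 0.00 for IM-HYA over IM and −0.42 for IM over CT. For the clock repressors these medians were 0.62, 0.22 and 0.49, for the immediate early genes −0.58, −0.42 and −0.20, and for the mitochondrially encoded genes 0.85, 0.41 and 0.43.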

How the data were processed

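Colon total RNA was sequenced in 9 libraries, 3 per group, and assigned to groups by sample title. The submitters' processing notes name the aligner HISAT2 2.1.0 with bcl2fastq 2.20.0, StringTie 2.1.3b and Trimmomatic, and the build GRCm38 (mm10). Strandedness, annotation release and counting settings are not given in the sources used here. Read counts in the deposited table were whole numbers, not normalized, and these were tested. The deposited FPKM values, scaled by the authors for gene length and library total, entered only alternatives. The deposited TPM values were not tested. Per-sample columns left unused numbered 0. Of the gene identifiers 45679 had an entry in RefSeq (GRCm38.p6) and 98 had none; positions count from 1.

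The main test was a quasi-likelihood fit in edgeR 4.0.16 on all 9 libraries (R 4.3.3, robust, TMM scaling, filterByExpr by group with a minimum count of 10 and total of 15, group as the only term, 6 residual degrees of freedom), with Benjamini-Hochberg adjustment over 18414 genes at 0.05. Standard errors are the fold change divided by the root of the F statistic. Alternatives were RLE and upper quartile scaling, other filters, DESeq2 1.42.0, limma 3.58.1 with voom or on log2(FPKM + 1) and log2(FPKM + 0.1), the older edgeR form, only the 6 libraries, a replicate block, covariates for the Rn18s-rs5 share or posterior Hox level, removal of Rn18s-rs5 and pancreas genes, and leaving out each library. The tests were tried on simulated counts. Figures used matplotlib 3.10.9 in Python 3.11.15.

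The comparison and the 52 lists were chosen with earlier results of these data known. Some lists share genes, so their counts are not independent. Named genes were those that passed, otherwise the 10 with the smallest p per direction with groups apart and at least 1 CPM in the higher group, without unnamed models or immunoglobulin segments. Also named were up to 5 members of a list and the 3 genes with the highest mean in IM-HYA. Further list members and the transcripts set beside the Rn18s-rs5 share were named after their values were seen. Some list members are not reported here.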

Additional observations from a re-analysis of the deposited data

How the results depend on the processing

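The number of genes called between IM-HYA and CT was 1 in edgeR and stayed 1 under RLE and upper quartile scaling, both other filters, voom, the older edgeR form, the 6 libraries alone, both covariates and without Rn18s-rs5 and pancreas genes. DESeq2 called 15 (10 higher, 5 lower), limma on log2(FPKM + 1) 7 (6 higher), on log2(FPKM + 0.1) 3 (2 higher), and on log2(FPKM + 1) with no filter 0 (0 lower), where G530011O06Rik had an adjusted p of 0.184 and 2666 genes an unadjusted p under 0.05. Leaving out 1 library gave 1 to 2 calls, 0 to 1 higher and 1 to 1 lower; the second call came without CT 1. Genes at an unadjusted p under 0.05 numbered 952 with all 9 libraries, 2781 with only the 6 compared and 4053 in voom; leaving out 1 library gave 722 to 836 for CT, 994 to 2078 for IM and 361 to 539 for IM-HYA. Of 65 named genes whose fold change was recomputed, 28 turned or moved by over 1.5 times with the Rn18s-rs5 share as a covariate. The 28 include Rn18s-rs5 itself. COX1 went from 0.81 to 0.09, Dbp from 1.35 to 0.62 and ATP8 from 2.22 to 0.83. Mylip went from 1.13 to 0.68 and Gclc from 0.86 to 0.52, while Fos grew from −1.36 to −2.29. Every IM-HYA share was below every CT share, so this covariate partly overlaps with the group term. Fits with it cannot separate the share from the group. FPKM values moved the median of all genes to 0.52, 0.67 and 0.14, so directions there are relative to it. The Lypd8 log2 fold change turned to −0.47 with the Rn18s-rs5 share as a covariate and ran from −0.046 (without CT 3) to 0.50 (without CT 2) when 1 library was left out, and that of ND6 to 0.56 with the covariate; the cause was not tested. With the replicate block 1 gene was called (G530011O06Rik, adjusted p = 0.0327) and 1017 had an unadjusted p under 0.05. The deviations of same-numbered IM-HYA and CT libraries from their group means had correlations of 0.25, 0.01 and −0.27. Of the 3 only number 1 correlated best with its own number. Tissue content also differed between libraries, so these values cannot show whether a number marks a shared animal, litter or day. The Rn18s-rs5 share differed by −11.8 to −2.94 points when 1 library was left out and by −9.95 points without pancreas genes. Genes under the count minimum could not be tested at this depth, and a gene that did not pass is not shown to be unchanged.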
